A study of Arabidopsis thaliana with 18 samples.

Results

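The genes examined were 6 linked to iron and manganese uptake by Arabidopsis roots, not all of them acting at the root surface. They were IRT1 (AT4G19690), IRT2 (AT4G19680), FRO2 (AT1G01580), FRO3 (AT1G23020), AHA2 (AT4G30190) and NRAMP1 (AT1G80830). They were taken by locus identifier from tables of 28991 genes each, one for roots and one for shoots, and all 6 were found in both. Wild-type (WT) plants of the Col-0 ecotype, 6 weeks old and grown hydroponically, were given 5 µM lanthanum (La, as LaCl3) or 5 µM ytterbium (Yb, as YbCl3) for 72 h, or neither element as control. During those 72 h the medium of every group, control included, lacked phosphate. The growth medium before it supplied iron as NaFe(III)-EDTA at 50 µM. Each replicate pooled 3 plants, and each of the 6 groups (control, La and Yb, in roots and in shoots) held 3 replicates, which gave 18 libraries of polyadenylated RNA. The labels name no separate containers for the replicates of a group, so p-values measure the spread between these samples, which may be technical.

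Arabidopsis acquires iron by a reduction strategy. Plasma membrane proton pumps acidify the soil solution, ferric reductases turn Fe(III) into Fe(II), and a divalent metal transporter carries the Fe(II) into the epidermal cell. The transcription factor FIT, as a dimer with bHLH factors of the BHLH38 and BHLH39 group, drives IRT1 and FRO2 when iron is short. IRT1 also carries zinc, manganese, cobalt and cadmium.

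IRT1 lay at chr4:10707344-10709015 on the plus strand (RefSeq annotation of build TAIR10.1) with 3 exons. IRT2 lay on the same strand at chr4:10703348-10704838 with 2 exons. The gap between the pair was 2505 bases and held no other gene. FRO2, at chr1:208995-213082 on the plus strand, had 8 exons and was followed after 1067 bases by its relative FRO1. FRO3, at chr1:8149868-8153796, AHA2, at chr4:14770395-14776247, and NRAMP1, at chr1:30372668-30376072, were on the minus strand with 8, 15 and 11 exons.

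E-boxes, which bHLH factors bind, were searched as CANNTG, a palindrome and so the same on both strands, in the 1000 bases before each annotated start. The G-box, CACGTG, is one form of the E-box and overlaps it by definition. Of 27443 such windows in the genome, 96.2% held an E-box, with a median of 3 matches, and 14.8% held a G-box. The IRT1 window had 3 E-boxes, 1 of them a G-box that began 618 bases before the start. The IRT2 window had 5, FRO2 2, AHA2 3 and NRAMP1 2. No match was found in the FRO3 window. The E-boxes nearest to the start are shown for the adjacent pair IRT1 and IRT2 and for the reductase FRO2, as 60 bases of the plus strand written 5′ to 3′ with the motif in capitals. They come from chr4:10706699-10706758, chr4:10702711-10702770 and chr1:208328-208387 of TAIR10.1.
IRT1: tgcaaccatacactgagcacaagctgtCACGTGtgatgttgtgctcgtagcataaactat
IRT2: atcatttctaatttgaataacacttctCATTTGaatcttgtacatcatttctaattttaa
FRO2: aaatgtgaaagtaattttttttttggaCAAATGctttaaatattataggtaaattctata
The IRT2 motif began 610 bases and the FRO2 motif 640 bases before the start, so of these nearest motifs the one of IRT1 was the G-box.

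Several members have close relatives, which matters for how reads are assigned. Over aligned bases, with gaps left out, the coding sequences of IRT1 and IRT2 were 76.0% identical and those of FRO2 and FRO1 75.0%. On the same measure FRO2 and FRO3 had 75.2%, NRAMP1 and NRAMP6 83.2%, and AHA2 and AHA1 89.2%. No stretch of 125 bases, the read length per the labels, was shared by any of these pairs. The longest run common to the coding sequences of each of the pairs IRT1 with IRT2 and AHA2 with AHA1 is shown, on the coding strand.
IRT1 and IRT2, 22 bases: tcactctagccattgactccat
AHA2 and AHA1, 59 bases: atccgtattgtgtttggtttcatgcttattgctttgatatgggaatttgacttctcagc
For AHA2 and AHA1, 0.55% of the 2897 windows of 50 bases were shared, and for the other pairs none.

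The deposited values were read counts divided by a size factor for each library, and are given here as reads per size factor. The root libraries held 12.8 to 16.22 M reads and the shoot libraries 12.44 to 16.35 M. Differences were tested with limma on log2 values, with the Benjamini-Hochberg adjustment over all 22729 genes tested in roots or 21967 in shoots, and a gene was called below an adjusted p of 0.05. Both elements were compared with the same control libraries, so their values are set side by side. Along the main axis of variation in roots, which held 45.3% of the variance, controls lay at -66.1 to -55.5, La libraries at 58.8 to 93.7 and Yb 1 and Yb 2 at 9.2 and 9.9. Yb 3 lay at -50.8, next to the controls. In bulk RNA, fewer cells of a type and less RNA per cell cannot be told apart.

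In roots, La raised the transporter IRT1 and the reductases FRO2 and FRO3, each by over 1 on the log2 scale, and lowered the manganese transporter NRAMP1, while IRT2 and AHA2 did not pass the test. Thus 4 of the 6 genes were called, 3 higher and 1 lower. Over all genes tested in the same comparison 18.9% were called, 9.41% higher and 9.51% lower. The libraries of IRT1, FRO2 and FRO3 with La lay above all controls without overlap, as did those of 18.1% of all genes. With Yb, 0 of the 6 were called by limma, against 1.24% of all genes. At an unadjusted p below 0.05 there were 3 with Yb (IRT2, FRO3 and NRAMP1), against 16.6% of all genes. edgeR called 0 of the 6 (1.19% of all genes) and DESeq2 1 (4.80% of those to which it gave an adjusted p). The Yb share rested on the libraries: 282 genes were called with all libraries, between 8 (without Yb 1) and 179 (without control 1) when any library but Yb 3 was left out, and 1140 without Yb 3. In that last case 0 of the 6 were again called. With Yb, IRT2 and FRO3 lay above all controls without overlap (10.6% of all genes) and NRAMP1 below them (9.62%).

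**Figure D1:**
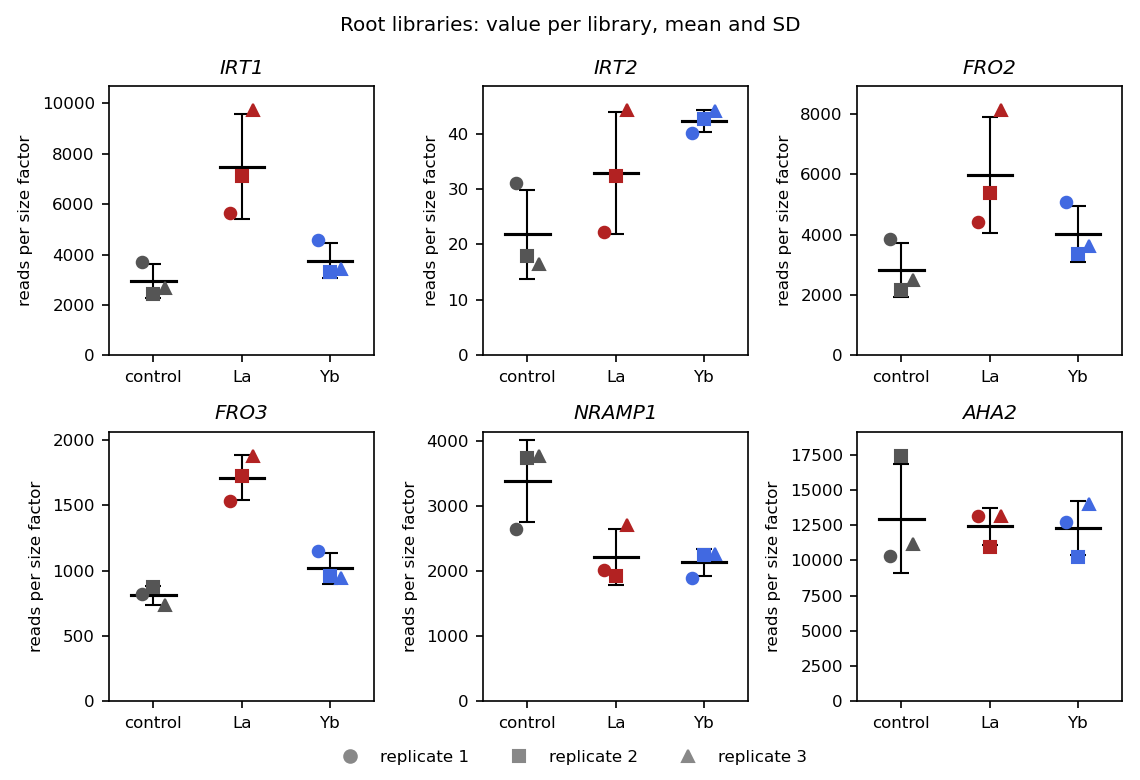
Reads per size factor of the 6 genes in each of the 9 root libraries, on axes that start at 0. Points are libraries, with a marker shape for each replicate number, horizontal lines are group means and bars are SD (n = 3). IRT1 lies at 5634 to 9719 in the La libraries and at 3722 or below in the controls.

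IRT1 encodes the main Fe(II) transporter of the root surface. Its values were 3722, 2452 and 2661 in control roots, 5634, 7132 and 9719 in La roots, and 4566, 3294 and 3413 in Yb roots. All La libraries were above all others, and the Yb range overlapped the control range. IRT1 rose with La by 1.34 ± 0.23 (SE, log2; limma with Benjamini-Hochberg adjusted p = 0.00556). The Yb difference was 0.36 ± 0.23, with a 95% interval of -0.16 to 0.88 (limma, adjusted p = 0.475). The La call was kept when any of the 6 libraries was left out, with differences of 1.13 to 1.52 and adjusted p of 0.00498 to 0.0248 (limma).

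IRT2, the neighbour of IRT1, encodes a related transporter that in Arabidopsis has been placed on intracellular vesicles. Control roots had 31.06, 17.93 and 16.44, La roots 22.15, 32.32 and 44.16, and Yb roots 40.03, 42.69 and 44.03. The Yb libraries were all above the controls and close together, while the La libraries spread over both. The difference was 0.99 ± 0.32 with Yb (limma, adjusted p = 0.161) and 0.58 ± 0.32 with La (adjusted p = 0.239). IRT2 was carried by 294 reads over the 9 root libraries, against 43479 for IRT1, so its values were the least precise of the 6.

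FRO2 encodes the ferric reductase of the root epidermis. It stood at 3840, 2153 and 2509 in controls, 4432, 5390 and 8116 with La, and 5088, 3343 and 3637 with Yb. The La libraries were above every control, and Yb 1 lay above La 1, so these 2 groups overlapped. FRO2 rose with La by 1.08 ± 0.29 (limma, adjusted p = 0.0333). The difference ran from 0.83 to 1.32 over the 6 omissions of a library. Of these, 4 ended the call: control 2 (limma, adjusted p = 0.0953), control 3 (0.0969), La 2 (0.082) and La 3 (0.0864). With the 6 compared libraries fitted alone it had adjusted p = 0.0584. The Yb difference was 0.53 ± 0.29, with an interval of -0.13 to 1.18 (limma, adjusted p = 0.402).

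FRO3 encodes a ferric reductase located in mitochondria. Its root values were 820.8, 876.4 and 733.8 in controls, 1534, 1727 and 1876 with La, and 1153, 957 and 943 with Yb. The groups formed steps without overlap, with controls lowest, Yb between and La highest. FRO3 rose with La by 1.08 ± 0.11 (limma, adjusted p = 0.000578), and the call was kept without each library in turn (1.01 to 1.15, adjusted p of 0.00103 to 0.00429). The Yb difference was 0.33 ± 0.11 (limma, adjusted p = 0.179). It passed only when libraries were weighted by their quality (limma with weights, adjusted p = 0.0451). FRO3 overlaps the gene LPR1 (AT1G23010) on the opposite strand by 24 bases. LPR1 averaged 68.8 in control, 89.0 in La and 85.5 in Yb roots, far under FRO3. The strand setting of the counting is not given in the sources used here, so reads within the overlap cannot be assigned to either gene.

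NRAMP1 encodes the high-affinity manganese transporter of the root, which also takes part in iron uptake. Values were 2647, 3729 and 3758 in controls, 2018, 1927 and 2709 with La, and 1888, 2243 and 2259 with Yb. Both elements gave lower values than control 2 and control 3, and La 3 overlapped control 1. NRAMP1 fell with La by 0.61 ± 0.17 on the log2 scale (limma, adjusted p = 0.0328). It did not pass on omitting control 2 (limma, adjusted p = 0.102), control 3 (0.111), La 1 (0.0945) or La 2 (0.11), nor with the 6 libraries alone (0.0561). With Yb the difference was of like size, -0.65 ± 0.17, and was not called by limma (adjusted p = 0.10). It was called by DESeq2 (adjusted p = 0.00744), by limma with library weights (0.0336) and by limma without control 1 (-0.82, adjusted p = 0.0467).

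NRAMP1 overlaps CCR2 (AT1G80820) on the opposite strand by 132 bases, again with an unknown strand setting. CCR2 averaged 288 ± 38.0 in control, 467.5 ± 32.6 in La and 467.8 ± 40.7 in Yb roots (SD, n = 3), so it stood higher where NRAMP1 stood lower. Its part in the NRAMP1 values was not tested.

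AHA2 encodes the main proton pump that acidifies the root surroundings. It was the most highly read of the 6, with 10329, 17384 and 11193 in controls, 13117, 10927 and 13173 with La, and 12732, 10211 and 14009 with Yb. The 3 groups overlapped, and control 2 was the highest library. The differences were -0.03 ± 0.20 with La (95% interval -0.47 to 0.41; limma, adjusted p = 0.936) and -0.05 ± 0.20 with Yb (-0.49 to 0.39; adjusted p = 0.933). Both changed sign under quantile normalization, to 0.0141 and 0.0122.

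**Figure D2:**
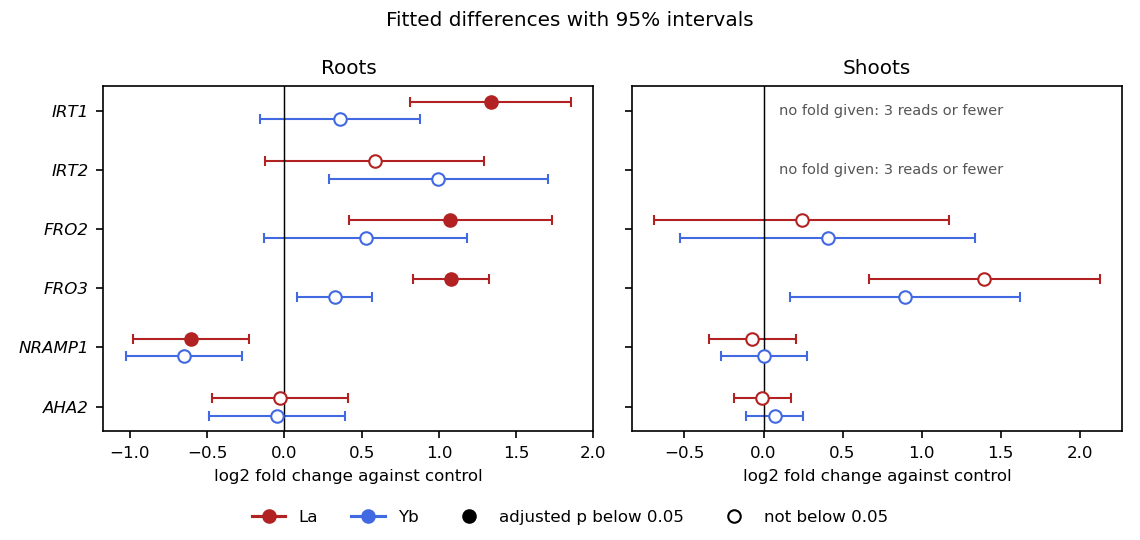
Log2 fold changes against control with 95% intervals from limma, for La and Yb in roots (left) and shoots (right). Filled points have an adjusted p below 0.05. The 4 filled points are IRT1, FRO2, FRO3 and NRAMP1 with La in roots, where IRT1 stands at 1.34, and no fold is drawn for IRT1 and IRT2 in shoots, where no library had more than 3 reads.

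Compared directly at the same dose and time in roots, La gave higher IRT1 than Yb by 0.98 ± 0.23 (limma, adjusted p = 0.0427) and higher FRO3 by 0.75 ± 0.11 (adjusted p = 0.0103). These were 2 of the 6 genes, where 6.45% of all genes tested were called, and both had groups that did not overlap (higher with La in 13.9% of all genes). IRT1 did not pass on omitting La 2 (limma, adjusted p = 0.119), La 3 (0.111), Yb 1 (0.0552), Yb 2 (0.0963) or Yb 3 (0.139). It passed with La 1 omitted, and did not under quantile normalization (0.0525). FRO3 kept it without each library, with adjusted p of 0.00678 to 0.0453. The count over all genes was 1466, and it was lower on omitting La 2 (338 genes), La 3 (272), Yb 1 (540) or Yb 3 (592). For FRO2 the difference between the elements was 0.55 ± 0.29, with an interval of -0.11 to 1.20 (limma, adjusted p = 0.302). For IRT2 it was -0.41 ± 0.32 (-1.12 to 0.30), for AHA2 0.02 ± 0.20 (-0.42 to 0.46) and for NRAMP1 0.05 ± 0.17 (-0.33 to 0.42), none of them called.

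Levels of different genes were compared as reads per size factor per kb of the longest annotated transcript. In control roots AHA2 was highest at 3603, then IRT1 at 1991, NRAMP1 at 1397, FRO2 at 994, FRO3 at 297 and IRT2 at 15.6. The ranges of NRAMP1 (1095 to 1554) and FRO2 (755 to 1347) overlapped. With these lengths AHA2 (2870 to 4830) stood clear of IRT1 (1658 to 2517), and IRT1 stood clear of NRAMP1. Both separations in controls depend on the length chosen. The transcripts of IRT1, NRAMP1 and AHA2 have 1479, 2418 and 3599 bases, and their coding sequences 1044, 1599 and 2946. With La the order changed: IRT1 (3809 to 6572) was above AHA2 (3036 to 3660) without overlap, and FRO2 (1555 to 2848) was above NRAMP1 (797 to 1120) without overlap. With Yb, IRT1 (2227 to 3087) overlapped AHA2 (2837 to 3893), and FRO2 (1173 to 1785) was again above NRAMP1 (781 to 934). FRO3 came next to last and IRT2 last in all 3 groups.

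**Figure D3:**
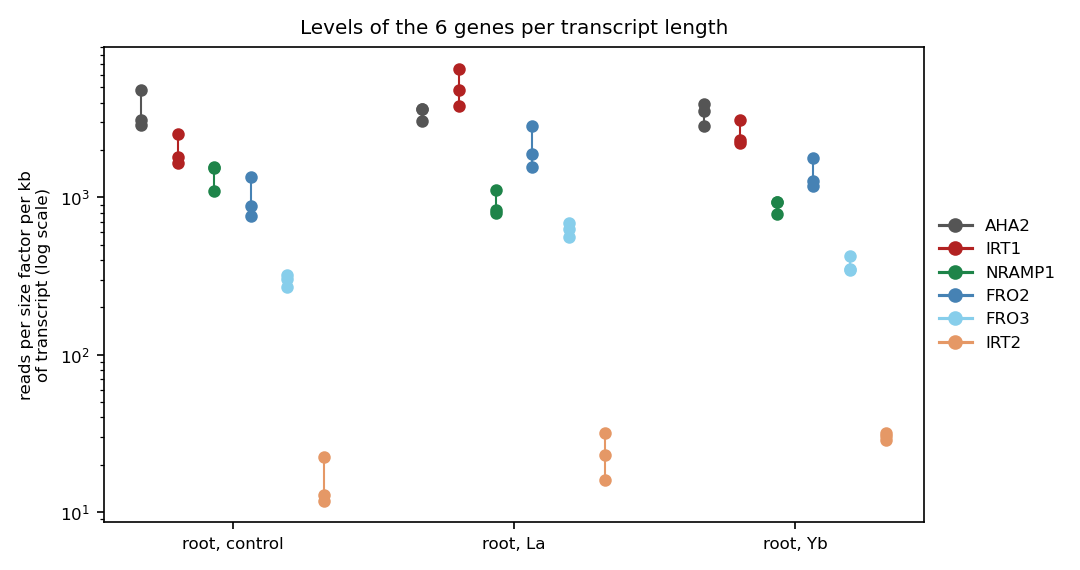
Reads per size factor per kb of transcript (log scale) in the root groups. Points are the 3 libraries of each group, joined by a line over their range. IRT1 is second to AHA2 in controls and first with La, while IRT2 stays near the bottom, between 11.8 and 31.7.

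Within a library, the ratio of IRT1 to FRO2 in reads per size factor was close to 1 in controls (0.969 to 1.14), higher with La (1.20 to 1.32) and lower with Yb (0.897 to 0.985). The La ratios did not overlap those of the other groups, and the Yb ratios overlapped the control ratios. This ratio was picked after its values were seen among 10 ratios in 30 comparisons. An exact permutation test, two-sided, gave p = 0.1 for La against control, the smallest p that 3 libraries against 3 allow. The same p, without overlap, was found for IRT1, FRO2 and FRO3 over NRAMP1, for IRT1 and FRO3 over AHA2, and for NRAMP1 over AHA2. The ratios of IRT1 to FRO3, FRO2 to FRO3 and FRO2 to AHA2 overlapped. The ratio of FRO2 to FRO3 was 2.46 to 4.68 in controls, 2.89 to 4.33 with La and 3.49 to 4.41 with Yb, with overlap throughout.

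Over the 9 root libraries the log2 values of IRT1 correlated with those of FRO2 (r = 0.96) and FRO3 (r = 0.95), and FRO2 with FRO3 (r = 0.85). The points share their 3 groups, so these r values describe group differences as well as library differences. NRAMP1 ran the other way, with r = -0.54 against IRT1, and AHA2 was at -0.14 against IRT1.

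Among 20028 genes with a mean of at least 10 in roots, the patterns most like IRT1 over the 9 libraries were those of AT3G06890 (r = 0.979), GLP5 (0.978) and DRM3 (0.971). FRO2 was most like AT1G70640 (0.975), AT5G37310 and AT4G35880 (0.956 each). FRO3 was most like XBAT35 (0.987), BI1 (0.986) and QRT2 (0.985). NRAMP1 had its nearest patterns in AT2G22122 (0.988), the potassium channel gene SKOR (0.98) and AT4G29905 (0.971). AHA2 had lower values, with PHR1, a regulator of phosphate starvation, at 0.941, AT1G16180 at 0.935 and AT5G65560 at 0.919. IRT2 was nearest to STE14A (0.959), Cpn60beta4 (0.949) and PGK1 (0.946). All these r values were picked as the highest among 20028 genes, over only 9 libraries that share their groups. High values can thus arise by selection and from group differences alone. Even IRT2, with 16 to 46 reads in a root library, reached 0.959. Whether the named genes are regulated together was not tested.

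The regulators upstream of IRT1 and FRO2 moved mostly upward with La in roots. Of 17 listed transcriptional regulators of iron uptake, 10 rose, 1 fell and 6 did not pass (limma), and the list median was 1.02 on the log2 scale where that of all genes was 0. Limma called 9.41% of all genes higher and 9.51% lower. A count of 10 higher was also found when each library was left out and by edgeR and DESeq2, with 2 lower without control 1. BHLH39, a partner of FIT, went from 241.8, 135.4 and 79.13 in controls to 877.7, 1239 and 1079 with La, a rise of 2.94 ± 0.36 (limma, adjusted p = 0.00241). BHLH38 rose by 2.84 ± 0.41 (adjusted p = 0.0038) and BHLH100 by 4.14 ± 0.52 (0.00256). IMA1, whose peptide promotes iron uptake, rose by 3.07 ± 0.28 (0.000433), and BTSL1, a ubiquitin ligase that acts against FIT, by 1.06 ± 0.14 (0.00134). The list thus mixes genes that act for and against iron uptake, so its count and median give no direction of uptake.

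FIT, the factor on which IRT1 and FRO2 depend, was the regulator that fell. It stood at 1896, 1925 and 1845 in controls, 988.4, 992.5 and 1314 with La, and 1212, 1076 and 1479 with Yb. All Yb libraries were below all controls, as were those of 9.62% of all genes. With La, limma called 9.51% of all genes lower. FIT fell by 0.79 ± 0.13 with La (limma, adjusted p = 0.00378), opposite in direction to IRT1 and FRO2 in the same libraries. With Yb it had -0.60 ± 0.13 (limma, adjusted p = 0.0658).

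With Yb in roots, 14 of the 17 regulators did not pass and 3 rose, with a median of 0.52 and 1.24% of all genes called. The 3 that rose were the peptide genes IMA1 (2.87 ± 0.28; limma, adjusted p = 0.0064), IMA2 (2.84 ± 0.42, 0.0283) and IMA3 (2.94 ± 0.60, 0.0482). IMA3 had 1, 2 and 5 reads in the control libraries, so the size of its change is imprecise. BHLH38 had 1.67 ± 0.41 (adjusted p = 0.105), BHLH39 1.85 ± 0.36 (0.0617), BHLH100 2.65 ± 0.52 (0.062) and BTSL1 0.52 ± 0.14 (0.0989), none called by limma. The count of 3 was 1 without control 2, Yb 1 or Yb 2, 2 without control 3 and by edgeR, 4 higher and 1 lower without Yb 3, and 7 higher and 1 lower by DESeq2. Over all genes, edgeR called 1.19% and DESeq2 4.80% of those to which it gave an adjusted p.

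In shoots, limma called 1 of the 17 regulators with La, BHLH38 (adjusted p = 0.0359), and 0 with Yb. Of all genes it called 0.0865% with La and 0.0410% with Yb. BHLH38 had 0, 2 and 0 reads in the control shoots, 46, 61 and 13 with La, and 9, 17 and 37 with Yb. Its control is under the floor of 3 reads, so no fold is given. Each element had 10 of the 17 at an unadjusted p below 0.05, where all genes had 8.28% with La and 8.44% with Yb. edgeR called 0 with either element (0.0728% and 0.0455% of all genes), and DESeq2 called 10 with La and 7 with Yb, all higher (0.551% and 0.460%). With La the limma count was 9 without La 3, 2 without control 2, and 0 without control 1, La 1 or La 2. With Yb it was 1 without control 2 or control 3.

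Of 11 root genes known to depend on FIT, 6 rose with La, none fell and 5 did not pass, with a median of 0.94. Of all genes tested with La, limma called 9.41% higher and 9.51% lower. The vacuolar manganese transporter MTP8 rose by 2.60 ± 0.40 (limma, adjusted p = 0.00331), the transcription factors MYB10 by 1.41 ± 0.32 (0.0177) and MYB72 by 2.099 ± 0.51 (0.0191), and the copper transporter COPT2 by 1.12 ± 0.31 (0.0319). The others that rose were S8H, an enzyme of coumarin synthesis, by 1.60 ± 0.42 (0.0332), and MTP3, a vacuolar zinc transporter, by 0.83 ± 0.24 (0.0422). The count of 6 rested on single libraries: it was 2 without control 2 or La 3, and 1 without control 3 or La 2. With Yb, limma and edgeR called 0 of the 11 and DESeq2 3, with 4 at an unadjusted p below 0.05, and the median was 0.53. Over all genes, limma called 1.24%, edgeR 1.19% and DESeq2 4.80% of those to which it gave an adjusted p. An unadjusted p below 0.05 was found for 16.6% (limma). Without control 1, limma called 2 with Yb, both higher, and without Yb 3 it called 1, lower.

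The IRT1 protein is removed from the plasma membrane by ubiquitination and sorting, and 7 genes were listed as regulators of the protein. Of these, 1 fell with La and 6 did not pass (median -0.08), while 1 rose and 2 fell both by DESeq2 and by limma without control 1. Limma called 18.9% of all genes with La, 9.51% of them all as lower, so 1 of 7 is not read as a result about this list. The member that fell was CBL9, a calcium sensor of the kinase CIPK23, by 0.51 ± 0.12 (limma, adjusted p = 0.0178). CBL1, which acts with CBL9, had 0.38 ± 0.12 (0.0508), CIPK23 had -0.47 ± 0.17 (0.0816), and FREE1, a sorting protein, had 0.15 ± 0.07 (0.162). CBL9 lost its call without control 2 or La 2. With Yb, limma, edgeR and DESeq2 called 0 of the 7, with 2 at an unadjusted p below 0.05, and limma called 1 lower without control 1 and 1 lower without Yb 3. An unadjusted p below 0.05 with Yb was found for 16.6% of all genes (limma).

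**Figure D4:**
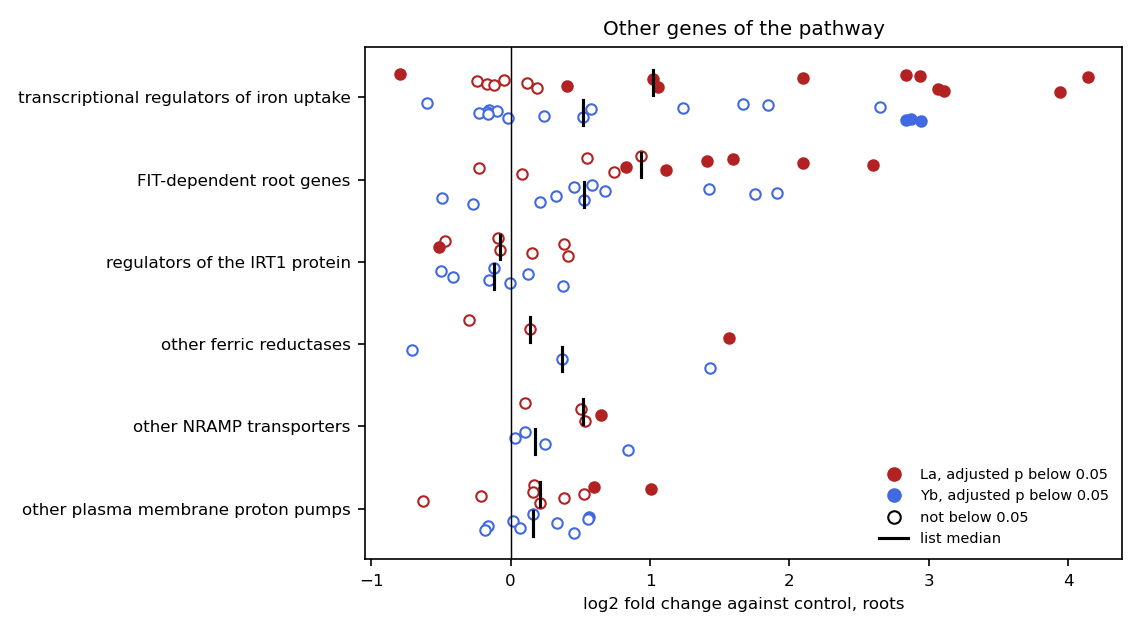
Log2 fold changes against control in roots for the other listed genes of the pathway. Each point is a gene, filled where the limma adjusted p is below 0.05, and black bars are list medians over the points drawn. Genes with at most 3 reads in every library of both groups (FRO1 and NRAMP5) are not drawn, and the regulators with La have a median of 1.02.

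Relatives of the 6 genes were also listed. Of the other ferric reductases, 4 of 6 were tested, and FRO8 rose with La by 1.56 ± 0.38 (limma, adjusted p = 0.0218) while the rest did not pass. Among all genes tested with La, limma called 9.41% higher, a share that applies to the NRAMP genes below as well. FRO8 lost its call without La 2. With Yb, FRO8 was at 137 to 246 against 41.8 to 93.2 in controls, above them without overlap (10.6% of all genes). Of the 4 tested with Yb, limma called 0 (1.24% of all genes). DESeq2 called 1 higher (4.80% of those to which it gave an adjusted p). FRO4 had -0.30 ± 0.50 (0.731) and FRO6 0.14 ± 0.44 (0.864). FRO1, the neighbour of FRO2, had 3 reads in each control library and at most 1 with La and 2 with Yb, at or under the floor of 3 reads, and no fold is given. Of 5 other NRAMP genes, NRAMP4, a vacuolar exporter of iron and manganese, rose with La by 0.65 ± 0.14 (adjusted p = 0.0105), and NRAMP3, its close relative in function, had 0.50 ± 0.19 (0.0969). NRAMP2 had 0.11 ± 0.09 (0.476), and NRAMP5 had at most 2 reads in any root library. A second NRAMP gene was called higher by DESeq2 and by limma without La 1. With La, NRAMP1 fell and NRAMP4 rose, and the difference between these 2 genes was not tested. Against the 9.41% of all genes, 1 of 4 reductases and 1 of 5 NRAMP genes are not read as results about these lists.

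Of 10 other plasma membrane proton pumps, 9 were tested and 2 rose with La, where limma called 9.41% of all genes higher. AHA4 rose by 1.01 ± 0.17 (limma, adjusted p = 0.00324) and AHA3 by 0.60 ± 0.10 (0.00371). AHA3 rose with Yb also, by 0.56 ± 0.10 (limma, adjusted p = 0.0346), a call lost without control 2, control 3, Yb 1 or Yb 2. With Yb, limma called 1.24% of all genes. AHA4 was not called with Yb, though its values of 161 to 203 lay above the controls (112 to 135) without overlap, as for 10.6% of all genes. AHA1, the close relative of AHA2, had 0.17 ± 0.10 with La (0.251), AHA7, a pump of the root epidermis, had 0.52 ± 0.24 (0.181) and AHA10 had -0.63 ± 0.30 (0.173). The count of 2 was 3 without control 1, and 2 higher with 1 lower without La 3. AHA1, at 7607 to 9819 over the 9 root libraries, and AHA2, at 10211 to 17384, were read far more than AHA4, at 112 to 315.

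IRT1 and FRO2 act in the root epidermis, the layer that bears the root hairs, and markers of root cell types differed in the same libraries. The summed level of 8 root hair markers was 2675 to 4076 in control roots, 117 to 442 with La and 1088 to 3876 with Yb, where Yb 3 was the highest. With La, 7 of the 8 fell (limma; 4 to 7 when a library was left out), and with Yb limma, edgeR and DESeq2 called 0, with 0 at an unadjusted p below 0.05. Over all genes with La, limma called 9.51% lower and 9.41% higher, shares that apply to the other markers below as well. With Yb it called 1.24%, and 16.6% had an unadjusted p below 0.05. The sum of 7 endodermis markers was 4031 to 6512 in controls, 986 to 2279 with La, where 5 of 7 fell (1 without control 1 or control 3, and 3 without La 2 or La 3), and 2697 to 5866 with Yb. The sum of 6 stele markers was 12154 to 16522, 13434 to 15810 and 12325 to 13654, with 1 called higher and 1 lower with La. All root hair markers were detected in roots, none at 0 throughout. With La, IRT1 and FRO2 were higher in libraries where the hair markers were lower, and the part of cell makeup in these values was not tested.

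In shoots, IRT1 and IRT2 were at or near 0. IRT1 had no read in the 3 control libraries, 1 read in La 1, and 3, 2 and 1 reads in the Yb libraries. IRT2 had 1 read in all 9 shoot libraries together. No fold is given for either, since no library had more than 3 reads. In shoots 4 of the 8 root hair markers (EXPA7, EXPA18, RHD6 and LRX1) were at 0 in every library. Green tissue markers summed to 467785 or more in each shoot library and to 837 or less in each root library.

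**Figure D5:**
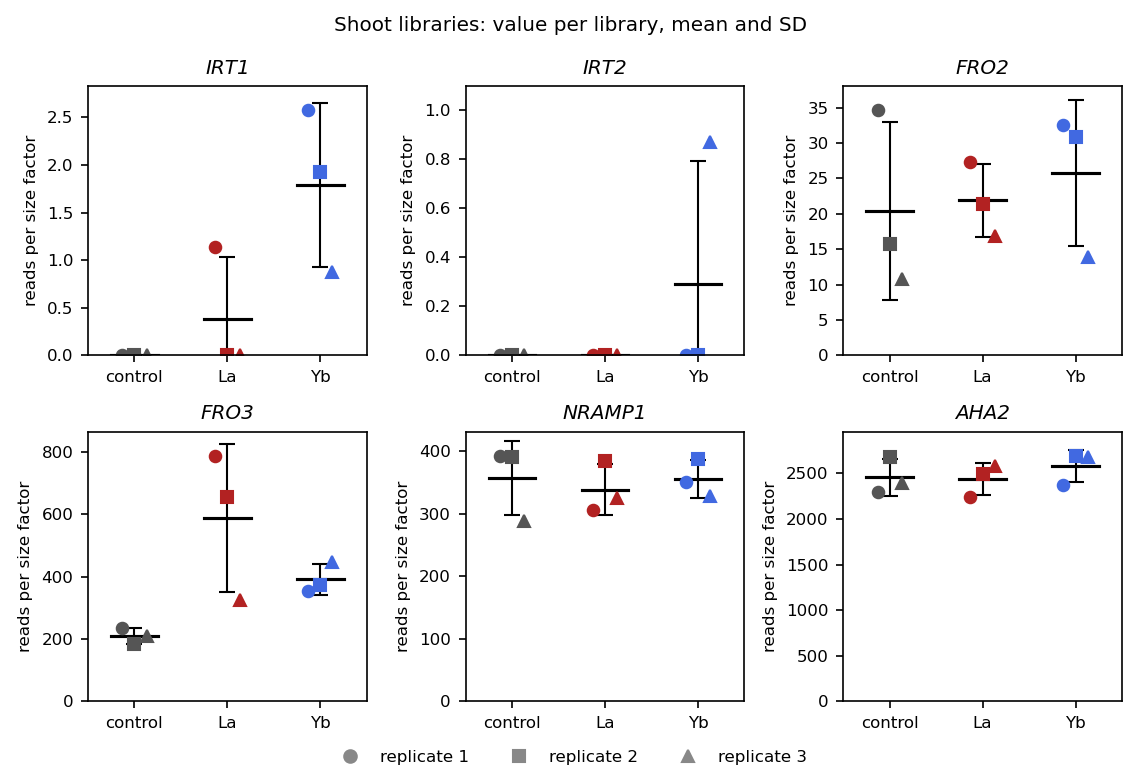
Reads per size factor of the 6 genes in the 9 shoot libraries, on axes that start at 0. Points are libraries, with a marker shape for each replicate number, lines are means and bars are SD (n = 3). FRO3 is at or below 235 in the controls and at 326 or above with La and Yb, and the IRT1 and IRT2 panels reach at most 3 reads in a library.

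The other members in shoots included FRO3 as the gene with separate groups. FRO3 stood at 235, 185 and 210 in control shoots, 786, 655 and 326 with La, and 355, 372 and 447 with Yb. Every library of both elements was above every control, as for 6.25% of all genes with La and 6.92% with Yb, and La 3 was the lowest of all the exposed shoots. Differences were 1.40 ± 0.31 with La (limma, adjusted p = 0.269) and 0.90 ± 0.31 with Yb (adjusted p = 0.518), neither called. The La difference was called without La 3 (1.78; limma, adjusted p = 5.05e-05) and by DESeq2 (8.83e-07). The Yb difference was called with the 6 libraries alone (limma, adjusted p = 0.0293) and by DESeq2 (0.049).

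FRO2 was low in shoots, at 34.6, 15.7 and 10.8 in controls, 27.3, 21.4 and 16.9 with La, and 32.6, 30.8 and 13.9 with Yb, and the groups overlapped. NRAMP1 was at 288 to 392 in controls, 305 to 384 with La and 328 to 387 with Yb. AHA2 was at 2292 to 2680, 2246 to 2586 and 2374 to 2686 in the same order. None of these 3 genes separated the groups. Their largest difference was 0.41 ± 0.43 for FRO2 with Yb (limma, adjusted p = 0.843), and the 95% intervals for AHA2 were -0.19 to 0.17 with La and -0.11 to 0.25 with Yb.

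Without IRT2, which did not pass the filter, 5 members were tested in shoots, IRT1 at the floor among them. Of these, limma called 0 with La (0.0865% of all genes), 0 with Yb (0.0410%) and 0 between the elements (0.00910%). At an unadjusted p below 0.05 there were 1 (FRO3), 2 (FRO3 and IRT1) and 0, and edgeR called 0 in each, while DESeq2 called 1, 1 and 0, in both cases FRO3. Per kb of transcript, control shoots had AHA2 at 683, NRAMP1 at 148, FRO3 at 76.9 and FRO2 at 7.15. The ranges of FRO3 and NRAMP1 did not overlap in controls (67.7 to 86.2 against 119 to 162), and they overlapped with La (119 to 288 against 126 to 159) and with Yb (130 to 164 against 136 to 160). The tables were normalized separately, so levels are compared within a tissue.

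Whether La and Yb effects differed between tissues was tested as an interaction over all 18 libraries with limma. Of the 5 genes tested, 0 were called for La (6.86% of all genes) and 0 for Yb (0.310%), and 1 and 2 had an unadjusted p below 0.05, against 21.4% and 12.0% of all genes. The count for Yb includes IRT1, whose shoot values are at the floor of 3 reads and whose interaction is not read. For La the root effect minus the shoot effect was 0.83 ± 0.59 for FRO2 (limma, adjusted p = 0.458), -0.32 ± 0.33 for FRO3 (0.638), -0.53 ± 0.23 for NRAMP1 (0.182) and -0.02 ± 0.22 for AHA2 (0.97). Without shoot La 3, the FRO3 interaction was -0.70 and was called (limma, adjusted p = 0.0359). For Yb the values were 0.12 ± 0.59 for FRO2, -0.57 ± 0.33 for FRO3, -0.66 ± 0.23 for NRAMP1 and -0.12 ± 0.22 for AHA2, with adjusted p of 0.255 to 0.962.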

How the data were processed

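The tables hold one deposited signal value per gene and library, named RPKM by the authors. Within 0.001, 100% of the values of every library were whole multiples of its own step, regardless of gene length, so they were read as counts over a size factor and used as such. Per the submitters' processing notes the tools were Trimmomatic 0.36.1, TopHat2 2.1.1 and HTSeq 0.6.1p1 with build TAIR10; no source used here gives their roles or the strand setting. Annotation and sequences are RefSeq TAIR10.1.

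Log2(value + 0.5) of genes with at least 1 in at least 3 libraries of a tissue was fitted with limma 3.58.1 (R 4.3.3; trend, robust), with Benjamini-Hochberg adjustment over all genes, two-sided. Each tissue was fitted over its 9 libraries, and the interaction over 18. The fit had been planned for length-normalized values, and the unit differed. Folds are on the log2(value + 0.5) scale and understate changes of low genes. Alternatives were pseudocount 1, no filter, quantile normalization, a replicate block, the 6 compared libraries alone, library weights, edgeR 4.0.16 and DESeq2 1.42.0 on recovered reads, and leaving out each library. The steps were tested on simulated data.

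The members, gene lists and markers were chosen with earlier results of these data known. Of each list, the 4 genes with the smallest adjusted p with La in roots are named, plus FIT, BHLH38, BHLH39, FRO1, AHA1 and AHA7, and IMA2, IMA3, S8H and MTP3 were named after their values were seen.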

Additional observations from a re-analysis of the deposited data

How the results depend on the processing

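Over 38 fold changes of the members and all alternatives, 548 values were computed: 484 kept direction and side of the threshold, 18 lost and 9 gained a call, and 37 changed sign, 0 of them for a called difference. The correlation of same-numbered deviations from the group mean was -0.125 to 0.182 within roots (1 of 9 pairs over 0.1). It was -0.08 to 0.061 within shoots and -0.003 to 0.075 between roots and shoots. Differently numbered libraries were not compared, so whether the replicate numbers pair the libraries was not settled. The main fits used no pairing. With the replicate block, 4, 0 and 1 members were called in roots for La, Yb and La against Yb, and 0 in shoots and in the interactions. The block gave 3799, 239 and 1159 genes in roots, 49, 34 and 30 in shoots, against 19, 9 and 2 without it, and IRT1 between the elements had adjusted p = 0.0673 (limma).

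With the 6 libraries alone, members called were 2 for La and 1 for La against Yb in roots, and 1 for Yb in shoots; genes called were 149 for Yb and 508 between elements in roots, and 7 for La and 71 between elements in shoots. Library weights called 2 members with Yb in roots, and 1281 genes with Yb and 2744 between elements in roots, 14 with Yb and 32 between elements in shoots. DESeq2 called 1 member each with Yb in roots, La in shoots and Yb in shoots, and 1026 and 2529 genes in roots (Yb, La against Yb) and 121, 101 and 83 in shoots (La, Yb, La against Yb). Quantile normalization called 1 member between elements in roots, and no filter 1 gene between elements in shoots. The causes were not tested.

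Leaving out 1 library gave, for La, Yb and La against Yb in roots, 2 to 4, 0 to 1 and 1 to 2 members and 2588 to 3738, 8 to 1140 and 272 to 1485 genes. In shoots it gave 0 to 1, 0 and 0 members and 3 to 100, 1 to 166 and 0 to 2 genes. The interactions gave 0 to 1 and 0 members and 871 to 1528 (La) and 14 to 369 genes (Yb).

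Sign changes all concerned differences that were not called. AHA2 with La became 0.0141 (roots) and 0.03 (shoots) under quantile normalization and 0.0339 in shoots with weights, and 0.0122 with Yb in roots under quantile normalization. NRAMP1 with Yb in shoots became -0.0115 (quantile), -0.0286 (weights), -0.0102 (edgeR) and -0.0084 (DESeq2). Without 1 library, AHA2 ran from -0.17 to 0.20 (La), -0.19 to 0.18 (Yb) and -0.11 to 0.12 (between elements) in roots, -0.0565 to 0.0563 (La) in shoots, and -0.17 to 0.21 (La) and -0.26 to 0.11 (Yb) in the interactions. NRAMP1 ran from -0.11 to 0.14 (between elements, roots), -0.22 to 0.0035 (La, shoots) and -0.142 to 0.0783 (Yb, shoots). FRO2 ran from -0.12 to 0.70 (La, shoots), -0.55 to 0.0476 (between elements, shoots) and -0.34 to 0.48 (Yb interaction). The floor of 3 reads covers counting error only, and depth sets the limit for IRT1 and IRT2 in shoots and for FRO1 in roots.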
